A study of Mus musculus with 20 samples.

Results

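Transcripts of 8 polyamine metabolism genes were followed through 24 h of treatment with insulin-like growth factor 1 (IGF1) in mouse tendon cells. The 8 genes are Odc1, Amd1, Srm, Sms, Sat1, Oaz1, Oaz2 and Azin1. They were taken by gene symbol from a count table of 29986 genes, and all 8 were among the 14420 genes with enough counts to be tested. Tenocytes, the fibroblast-like cells of tendon, came from tail tendons of adult C57Bl/6 mice and received 100 ng/mL of recombinant IGF1 for 0, 1, 2, 6 or 24 h. RNA sequencing gave 20 libraries, 4 at each time, with 13734425 to 22687173 counts each. No genetic change is named for any group, and the labels set the groups apart only by the time with IGF1. Untreated libraries of the later times were not analysed here, so the effect of IGF1 and that of time in culture cannot be told apart. Whether the 4 replicates of a time are separate mice or cultures is not stated, so p-values measure only the spread between these libraries, which may be technical.

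Polyamines (putrescine, spermidine and spermine) are small positively charged molecules that bind nucleic acids and are needed for translation and cell growth. Odc1 encodes ornithine decarboxylase, which makes putrescine. Amd1 encodes S-adenosylmethionine decarboxylase, which makes the aminopropyl donor, and the synthases encoded by Srm and Sms use that donor to make spermidine and spermine. Sat1 encodes the acetyltransferase that starts polyamine breakdown and export. Antizymes, encoded by Oaz1 and Oaz2, bind ornithine decarboxylase and deliver it to the proteasome, and the antizyme inhibitor encoded by Azin1 resembles the enzyme but lacks its activity and binds antizyme in its place. Much of this control acts on translation and protein turnover, which RNA counts do not measure.

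Short sequence elements show where polyamines are known to act on these messages. Antizyme is made only when ribosomes change reading frame at a stop codon, a step that polyamines favour. The capitals in the first pair of sequences mark the codon before the stop codon and the stop codon itself.
Oaz1: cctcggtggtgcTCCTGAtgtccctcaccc
Oaz2: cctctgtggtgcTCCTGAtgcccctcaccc
Both were read from GENCODE M21 transcripts, in which 2 of 7 Oaz1 models and 3 of 7 Oaz2 models hold them, and both are written on the strand of the message. The Amd1 message carries a short upstream reading frame at which polyamines are known to stall ribosomes. Its start and stop codons are in capitals, and 2 of 4 Amd1 transcript models hold it.
Amd1: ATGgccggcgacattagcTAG

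The cultures were checked for other cell types. All 8 tenocyte markers were present in every library, among them the tendon transcription factor gene Scx at 1484 to 5642 CPM. Their summed level was 57375 to 68020 CPM at 0 h and lower in every 6 h library, at 49098 to 55609 CPM. The lowest sum was 38446 CPM, in 2 h replicate 2. Col1a1 (17545 to 34596 CPM) and Col1a2 (14297 to 27197 CPM) had the highest levels in this sum. Calls of single tenocyte markers went both ways, with 1 higher and 2 lower at 6 h and 2 higher and 4 lower at 2 h. All 12 macrophage markers were called higher at 2 h, and none of the 12 was at 0 in any library. Their summed level was 89.6 to 111 CPM at 0 h and 242, 437, 150.3 and 161 CPM in replicates 1 to 4 at 2 h. At 1, 6 and 24 h it ranged over 87.8 to 198, 92.5 to 166 and 63.5 to 136 CPM. The 5 Schwann cell markers summed to 68.1 CPM in 2 h replicate 2 and to 4.88 to 16.2 CPM in the other libraries, with Sox10 at 0 in 3 libraries. The 5 endothelial markers summed to 37.0 to 40.5 CPM at 0 h, 6.81 to 11.6 at 6 h and 21.8 to 26.4 at 24 h, with Emcn at 0 in 10 libraries and Pecam1 in 4. Tek alone ranged from 5.93 to 40.9 CPM over the libraries. Pecam1, Cdh5, Kdr and Emcn reached at most 7.75, 9.51, 4.07 and 2.97 CPM. Of the 5 endothelial markers 2 had enough counts to be tested, and 1 was called lower at 6 h. The 5 pericyte and smooth muscle markers summed to 86.3 CPM in 2 h replicate 2 and to 28.4 to 48.1 CPM elsewhere. The part of these shifts in the results at 2 h and 6 h was not tested, and values without 2 h replicates 1 and 2 are given after the results for each gene.

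Transcripts of the synthesis enzymes and of the antizyme inhibitor were higher during the first hours of IGF1, while Oaz1, Oaz2 and Sat1 passed 1 of 12 tests against 0 h. Relative to 0 h, 2 of the 8 genes rose at 1 h (Amd1 and Azin1), when 10.6% of all tested genes were called in either direction with 6.75% higher and 3.88% lower. At 2 h 5 rose (Odc1, Amd1, Srm, Sms and Azin1), against 37.7% of all genes called, 20.2% higher and 17.5% lower. At 6 h the same 5 genes rose and Oaz2 fell, against 40.2% called, 20.6% higher and 19.6% lower. At 24 h 1 gene, Azin1, fell by a small amount, against 26% of all genes called, 12.7% higher and 13.2% lower. A gene was called at an adjusted p under 0.05 in edgeR's quasi-likelihood test over all tested genes. No member was called lower at 1 h or 2 h, and 0 were lower at an unadjusted p under 0.05 in edgeR or adjusted in DESeq2. No member was called higher at 24 h in either tool, with 1 higher at an unadjusted p under 0.05 in edgeR.

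The median log2 fold change of the 8 genes at the 4 successive times was 0.18, 0.33, 0.48 and −0.06. Over all tested genes the medians were 0.00325, −0.00613, −0.00190 and 0.00146. These comparisons share the 0 h libraries, so they are not independent of each other. In RNA from a whole culture, fewer cells of a type and less RNA per cell cannot be told apart.

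**Figure D1:**
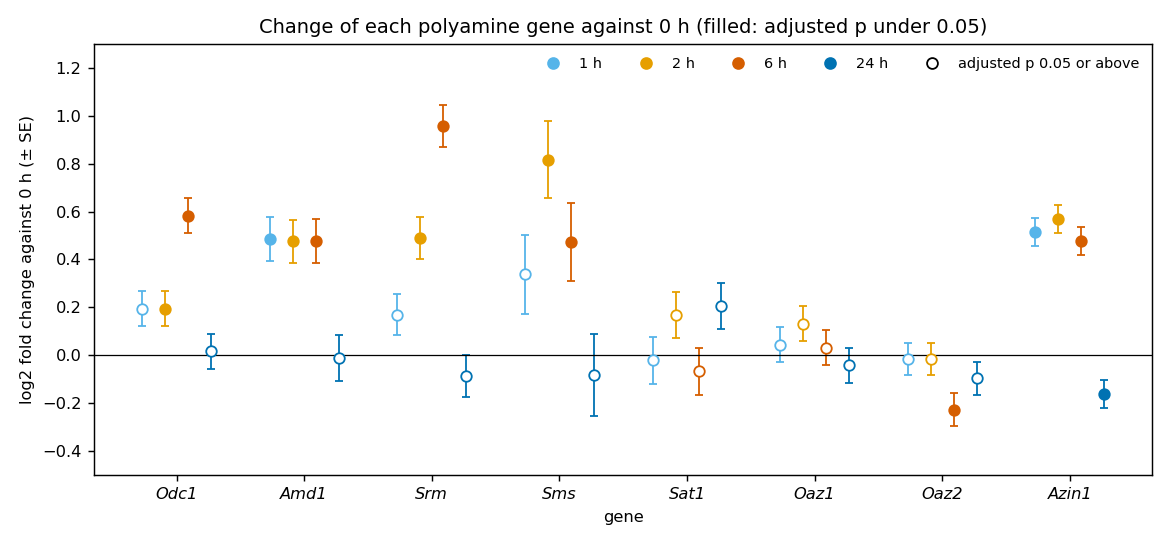
Log2 fold change against 0 h (y axis, ± SE) of each polyamine gene (x axis) at 1, 2, 6 and 24 h, with filled circles for an adjusted p under 0.05. The 4 synthesis genes and Azin1 lie above 0 at 1, 2 and 6 h and near or below 0 at 24 h, with the highest value for Srm at 6 h (0.96).

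The rate-limiting enzyme of the pathway, ornithine decarboxylase, is encoded by Odc1 (ENSMUSG00000011179, mm10 chromosome 12, 17544794 to 17551505, plus strand). At 0 h Odc1 was at 83.6, 85.4, 83.3 and 85.5 CPM (counts scaled to a common library size) in replicates 1 to 4. At 6 h it was at 127, 131, 117 and 129.9 CPM, above every 0 h library. Odc1 had therefore a mean of 84.4 ± 1.14 CPM at 0 h and 126 ± 6.27 at 6 h (SD, n = 4), a rise of 49.7% (log2 0.58 ± 0.073 SE, adjusted p = 3.30e-07).

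Between those times Odc1 was less even. At 1 h the libraries were at 97.2, 108, 94.6 and 86.4 CPM, all above 0 h, and the difference did not pass the test (log2 0.19 ± 0.073, adjusted p = 0.0973). It passed without 1 h replicate 4 (0.0437), without 2 h replicate 4 (0.0307) and when the libraries of other times were left out (0.0336). At 2 h they were at 91.2, 84.6, 99.5 and 111 CPM, and replicate 2 lay within the 0 h range. The 2 h rise (log2 0.19 ± 0.073, adjusted p = 0.0381) was lost without any 1 of the 4 libraries at 0 h (0.0593 to 0.0752), without 2 h replicate 3 (0.0694) and without 2 h replicate 4 (log2 0.12, 0.145). It was also lost with no count filter (0.0729), with the replicate number as a block (0.0525) and when the libraries of other times were left out (0.114).

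Odc1 rose further after 2 h: all 6 h libraries exceeded all 2 h libraries (log2 0.39, adjusted p = 0.000213). How much of the rise came after 2 h depended on the 2 h libraries. Without 2 h replicates 1 and 2, Odc1 changed by log2 0.32 from 0 h to 2 h. From 2 h to 6 h it then changed by log2 0.27 (adjusted p = 0.00996). Without 2 h replicate 4 alone, the change from 0 h to 2 h was log2 0.12. Over the omissions of single libraries, the change from 2 h to 6 h ranged from log2 0.33 to 0.47. By 24 h Odc1 was at 89.0, 82.1, 88.6 and 81.7 CPM, below every 6 h library (log2 −0.57, adjusted p = 6.85e-07). It overlapped the 0 h libraries again (log2 0.02 ± 0.074, adjusted p = 0.909).

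S-adenosylmethionine decarboxylase, encoded by Amd1 (ENSMUSG00000075232, mm10 chromosome 10, 40287458 to 40302186, minus strand), had a different course: an early step and a plateau. At 0 h Amd1 was at 14.1, 17.7, 19.3 and 17.1 CPM. At 1 h it was at 23.8, 23.7, 24.1 and 23.7 CPM, a narrow group above every 0 h library. The rise was 1.40-fold (log2 0.48 ± 0.092, adjusted p = 0.000523).

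Amd1 stayed near that level at 2 h and 6 h. It was at 24.5, 25.1, 19.9 and 25.1 CPM at 2 h and at 23.7, 26.1, 22.0 and 23.1 CPM at 6 h, with every library above 0 h at both times. The log2 fold changes were 0.47 ± 0.092 at 2 h (adjusted p = 0.000178) and 0.48 ± 0.092 at 6 h (0.000130), and neither step between 1, 2 and 6 h passed the test. At 24 h the 4 libraries lay between 16.5 and 17.0 CPM, all below the 6 h libraries (log2 −0.49, adjusted p = 0.000142) and within the 0 h range. Of the 50-base stretches of Amd1 transcripts, 78.1% also occur in another gene, mainly its copy Amd2, so the level of Amd1 depends on how shared reads were counted. Amd2 itself had 0 to 4 counts per library.

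Spermidine synthase, encoded by Srm (ENSMUSG00000006442, mm10 chromosome 4, 148591503 to 148594993, plus strand), moved more than any other member on the log2 scale, with a range of 1.04 between its highest and lowest group means. At 0 h Srm was at 131, 112, 116 and 118 CPM. At 1 h it was at 129, 141, 140.3 and 126 CPM, which overlaps 0 h and did not pass the test (log2 0.17 ± 0.087, adjusted p = 0.253). At 2 h it was at 149, 145, 170.2 and 207 CPM, above every library of 0 h and 1 h.

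The 2 h rise of Srm was 1.40-fold (log2 0.49 ± 0.087, adjusted p = 6.67e-05), and replicate 4 stood highest. Without 2 h replicate 4 the log2 fold change was 0.37 (adjusted p = 4.86e-05). At 6 h Srm was at 251, 237, 227 and 212 CPM, with every library above every 2 h library (log2 0.47, adjusted p = 0.000182). Against 0 h the mean went from 119 ± 8.31 to 232 ± 16.6 CPM, or 1.94-fold (log2 0.96 ± 0.087, adjusted p = 1.50e-09).

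At 24 h Srm was at 102, 111, 119 and 117 CPM, below all 6 h libraries (log2 −1.04, adjusted p = 3.99e-10). These values overlap 0 h (log2 −0.09 ± 0.087, adjusted p = 0.520).

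Spermine synthase, encoded by Sms (ENSMUSG00000071708, mm10 chromosome X, 157443855 to 157492287, minus strand), was the member with the fewest counts. Sms was at 4.63, 3.71, 2.62 and 4.73 CPM at 0 h. At 2 h it was at 6.41, 7.65, 6.79 and 6.94 CPM, above every library of 0 h and 1 h. The 1.76-fold rise at 2 h (log2 0.82 ± 0.16, adjusted p = 0.000249) gave the highest group mean of Sms, earlier than those of Srm and Odc1 at 6 h. The step of Sms from 2 h to 6 h did not pass the test (log2 −0.34, adjusted p = 0.112).

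At 1 h Sms was at 4.98 ± 0.489 CPM and did not pass the test against 0 h (log2 0.34 ± 0.17, adjusted p = 0.228). The step from 1 h to 2 h passed (log2 0.48 ± 0.16, adjusted p = 0.0409), but not without 1 h replicates 1, 3 or 4 or 2 h replicate 2 (0.0735 to 0.1004), and not when the libraries of other times were left out (0.0676). At 6 h Sms was at 5.08, 6.22, 4.84 and 5.77 CPM, all above 0 h (log2 0.47 ± 0.16, adjusted p = 0.0226). That call was lost without 0 h replicate 2 (0.0568) or 3 (0.102), without 6 h replicate 2 (0.0782) or 4 (0.0542), and with no count filter (0.0643). At 24 h Sms was at 3.73 ± 0.450 CPM, below all 6 h libraries (log2 −0.56, adjusted p = 0.0109).

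**Figure D2:**
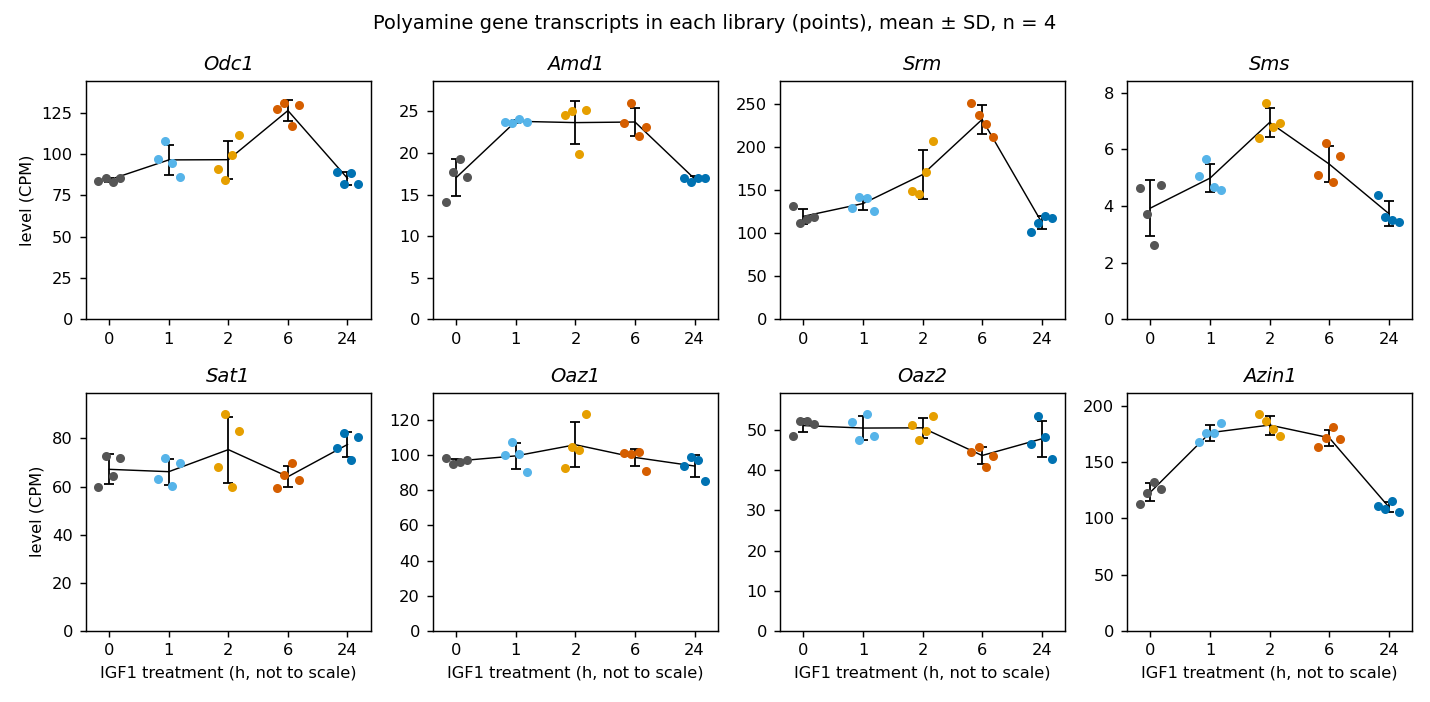
Level in CPM (y axis) of each polyamine gene against hours of IGF1 (x axis, not to scale), with 1 point per library (replicates 1 to 4 from left to right), a line through the group means and bars of ± SD. Srm and Odc1 are highest at 6 h, Sms and Azin1 at 2 h, and Amd1 keeps 1 level from 1 h to 6 h.

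Antizyme inhibitor, encoded by Azin1 (ENSMUSG00000037458, mm10 chromosome 15, 38487427 to 38519266, minus strand), rose as early as Amd1. At 0 h Azin1 was at 113, 122, 133 and 126 CPM. At 1 h it was at 168, 176, 176 and 185 CPM, far above that range. The rise was 1.43-fold (log2 0.51 ± 0.058, adjusted p = 3.08e-07).

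Azin1 was highest at 2 h, at 193, 187, 179.7 and 173 CPM (log2 0.57 ± 0.058, adjusted p = 1.44e-08). At 6 h it was at 164, 171, 181 and 171 CPM (log2 0.48 ± 0.058, adjusted p = 2.12e-07). Every library at 1, 2 and 6 h was above every 0 h library. Neither step between 1, 2 and 6 h passed the test.

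At 24 h Azin1 was at 111, 109, 116 and 105 CPM, below every 6 h library (log2 −0.64, adjusted p = 1.62e-09). It was also called below 0 h (log2 −0.16 ± 0.059, adjusted p = 0.0419), although its highest 24 h library lay within the 0 h range. That call was lost with no count filter (0.123) and without any 1 of 0 h replicates 2, 3 or 4, 1 h replicates 1, 2 or 3, any 6 h library, or 24 h replicates 1, 2 or 4 (0.0502 to 0.171). Azin1 shares 5.72% of its exonic bases with the antisense gene Gm49077, which had 18 counts over all libraries against 56422 for Azin1.

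Neither antizyme gene was called higher against 0 h. Oaz1 (ENSMUSG00000035242, mm10 chromosome 10, 80826656 to 80829290, plus strand) was at 98.3, 95.2, 95.9 and 97.4 CPM at 0 h, and its means at later times lay between 93.9 and 106 CPM. It passed no test, with adjusted p of 0.800, 0.161, 0.779 and 0.723 at 1, 2, 6 and 24 h, and all 4 groups overlapped 0 h. At 2 h Oaz1 ranged from 92.7 CPM in replicate 1 to 123 in replicate 4 (log2 0.13 ± 0.073), and it passed the test without replicate 1 (log2 0.19, adjusted p = 0.0411). Without replicate 4 the difference was log2 0.048.

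Oaz2 (ENSMUSG00000040652, mm10 chromosome 9, 65668001 to 65690300, plus strand) was the member that fell at 6 h. It was at 48.7, 52.2, 52.3 and 51.5 CPM at 0 h and at 44.5, 45.8, 40.8 and 43.7 CPM at 6 h, with no overlap. The fall at 6 h was −14.6% (log2 −0.23 ± 0.069, adjusted p = 0.00928). At 1 h, 2 h and 24 h the means were 50.5, 50.6 and 47.8 CPM, and none differed from 0 h by the test (adjusted p = 0.929, 0.877 and 0.338). From 2 h to 6 h Oaz2 fell (log2 −0.21, adjusted p = 0.0229), a call lost without 2 h replicate 1 (0.0511), 6 h replicate 3 (0.0868) or 6 h replicate 4 (0.0539), and with no count filter (0.1003). That call was also lost when the libraries of other times were left out (0.0523).

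Sat1 (ENSMUSG00000025283, mm10 chromosome X, 155213132 to 155216449, minus strand), the gene of the catabolic acetyltransferase, passed no test against 0 h. It was at 59.8, 72.7, 64.4 and 71.8 CPM at 0 h and at 68.3, 90.0, 59.9 and 83.2 CPM at 2 h, so the 2 h libraries spread on both sides of 0 h. The 2 h difference (log2 0.17 ± 0.097, adjusted p = 0.185) passed without replicate 3 (log2 0.26, 0.0219) and was log2 0.07 without replicate 2. The steps of Sat1 from 1 h to 2 h (adjusted p = 0.193) and from 2 h to 6 h (0.0757) did not pass, but did so without 2 h replicate 3 (0.0214 and 0.00786). The step from 2 h to 6 h also passed with no count filter (0.0348) and with the replicate block (0.0392), and its log2 change went from −0.23 to −0.14 without 2 h replicate 2.

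At 24 h Sat1 was at 76.2, 82.2, 71.0 and 80.6 CPM, against 59.3, 64.9, 69.6 and 62.6 CPM at 6 h, without overlap. That rise from 6 h to 24 h passed the test (log2 0.27, adjusted p = 0.0298). It was lost without any 1 of 6 h replicates 1, 2 or 4 or 24 h replicates 1, 2 or 4 (0.0504 or above). Against 0 h the 24 h difference was log2 0.21 ± 0.097 (adjusted p = 0.124), and it passed when the libraries of other times were left out (0.00799).

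The step from 6 h to 24 h had more calls among the members than the other steps. From 6 h to 24 h 5 members fell (Odc1, Amd1, Srm, Sms and Azin1) and Sat1 rose, when 35.8% of all genes were called, 17.6% higher and 18.2% lower. The median log2 change of the 8 over that step was −0.52, and over all genes it was 0.0107. From 1 h to 2 h Srm and Sms rose, against 16.3% called, 7.5% higher and 8.84% lower. From 2 h to 6 h Odc1 and Srm rose and Oaz2 fell, against 27.4% called, 13.6% higher and 13.7% lower. Over all 4 treated times at once 7 of 8 members differed from 0 h, all but Oaz1 (adjusted p = 0.255), and so did 63.7% of all genes. For Sat1 (0.0491) and Oaz2 (0.0265) this was close to the threshold. Sat1 missed it without any 1 of 0 h replicates 1 or 3, 1 h replicates 1, 3 or 4, 2 h replicate 4, 6 h replicates 1, 2 or 4, or 24 h replicates 1, 2 or 4 (0.0532 to 0.108). Oaz2 missed it without any 1 of 0 h replicates 2 or 3 or 6 h replicates 1, 3 or 4 (0.05002 to 0.134). With no count filter Oaz2 missed it too (0.132).

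Per kilobase of exon, the order of the levels at 0 h was Srm, Oaz1, Odc1, Sat1, Azin1, Oaz2, Amd1 and Sms. Srm stood at 74.6 ± 5.20 CPM per kb and Oaz1 at 37.8 ± 0.543. Odc1 (24.8 ± 0.336) and Sat1 (24.2 ± 2.23) overlapped, whereas Azin1 (19.7 ± 1.33) and Oaz2 (17.1 ± 0.569) did not. Amd1 was at 4.82 ± 0.615 and Sms at 0.653 ± 0.164 CPM per kb.

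At 6 h Srm reached 145 ± 10.4 CPM per kb, Odc1 37.1 ± 1.84 and Azin1 27.5 ± 1.14. Odc1 then overlapped Oaz1 (38.6 ± 1.98), and Azin1 lay above Sat1 (23.1 ± 1.55) in every library, the reverse of their order at 0 h. Stretches of 50 bases shared with other genes make up 78.1% of Amd1, 24.3% of Odc1, 21.0% of Oaz1 and 17.5% of Sms transcripts. For Srm, Sat1, Azin1 and Oaz2 they make up 2.01% to 7.42%.

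Ratios within a library do not depend on how libraries were scaled, and they are given without a test. The log2 ratio of Odc1 to its inhibitor gene Oaz1 was −0.23, −0.16, −0.20 and −0.19 at 0 h and 0.33, 0.38, 0.20 and 0.51 at 6 h, with every 6 h library above every 0 h library. The 0 of this ratio has no meaning of its own, since it depends on the lengths of both transcripts. At 1 h this ratio was also above every 0 h library (mean −0.05), and at 2 h and 24 h it overlapped 0 h (means −0.13 and −0.14). The ratio of Odc1 to Azin1 went the other way first: its mean was −0.55 at 0 h and −0.87 at 1 h, with no overlap. At 2 h (mean −0.93) and 6 h (−0.44) it overlapped 0 h. By 24 h its mean was −0.37, with every library above every 0 h library.

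The ratio of Amd1, which feeds synthesis, to Sat1, which starts breakdown, had a mean of −1.97 at 0 h. It was above every 0 h library at 1 h (−1.47) and 6 h (−1.43), and overlapped 0 h at 2 h and 24 h. The ratio of Oaz1 to Oaz2 was 0.92 at 0 h and 1.17 at 6 h, with no overlap. The ratio of Srm to Sms overlapped 0 h at every time.

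**Figure D3:**
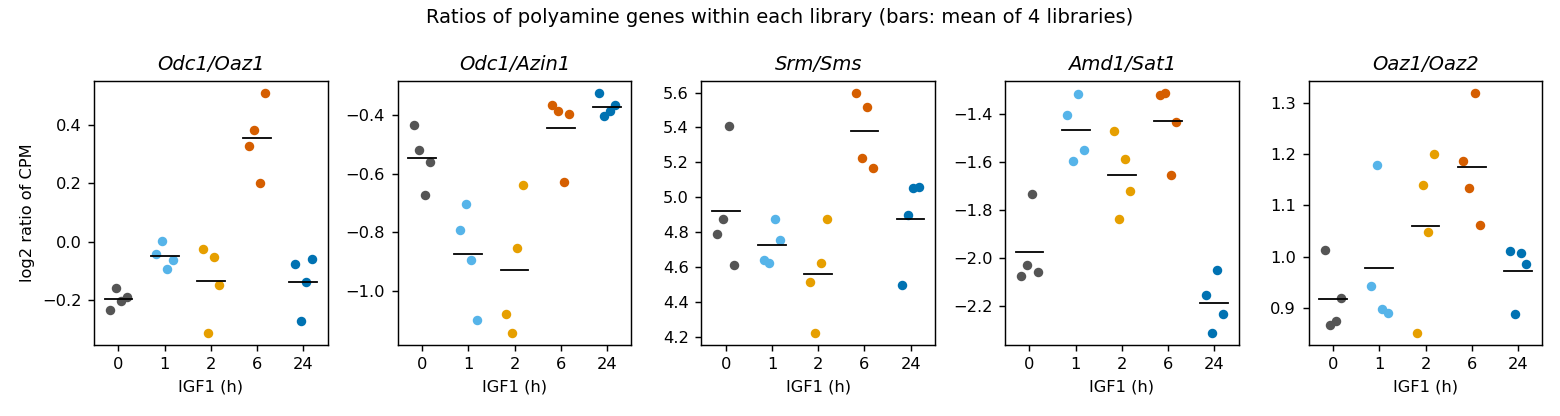
Log2 ratio of CPM (y axis) for 5 pairs of polyamine genes in each library against hours of IGF1 (x axis, not to scale), with a bar for the mean of 4 libraries. The ratio of Odc1 to Oaz1 lies between 0.20 and 0.51 at 6 h and at most at −0.16 at 0 h, while that of Srm to Sms overlaps 0 h at every time.

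Odc1 is a textbook target of the transcription factor Myc, whose best known binding letters are CACGTG (a palindrome, so both strands read alike). RefSeq windows from 250 bases before to 50 bases after each gene start (GRCm38.p6) were found for 6 of the members, with 7 windows in all. Srm and Azin1 had none. CACGTG occurred in 1 of these 7 windows and in 7.15% of all 32851 windows. The Odc1 window, shown because Odc1 and Srm had similar courses, spans chr12:17544623-17544922 on the plus strand and holds no match.
Odc1: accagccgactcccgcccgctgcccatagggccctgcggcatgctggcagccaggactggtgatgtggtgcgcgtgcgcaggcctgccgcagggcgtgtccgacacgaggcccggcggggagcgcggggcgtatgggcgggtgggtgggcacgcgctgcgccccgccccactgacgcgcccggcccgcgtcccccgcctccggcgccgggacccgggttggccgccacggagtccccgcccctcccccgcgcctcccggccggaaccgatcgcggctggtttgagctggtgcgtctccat
The window with a match belongs to 1 of the 2 Sms starts, chrX:157492238-157492537 on the minus strand, where the motif (capitals) begins at position −196 from the start.
Sms: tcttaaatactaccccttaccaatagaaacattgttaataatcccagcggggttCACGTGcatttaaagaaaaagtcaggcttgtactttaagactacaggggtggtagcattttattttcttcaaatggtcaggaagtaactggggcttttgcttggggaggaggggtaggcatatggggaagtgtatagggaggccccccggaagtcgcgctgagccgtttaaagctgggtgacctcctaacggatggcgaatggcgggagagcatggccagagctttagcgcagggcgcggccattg
A match in such a window describes letters only, and the known sites of a gene may lie outside it.

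Other genes of polyamine metabolism were read from a list of 26, of which 21 had enough counts to be tested; Amd2, Oaz3, Arg1, Arg2 and Agmat did not. Of these 21, 2 rose and 1 fell at 1 h, 6 rose and 5 fell at 2 h, 5 rose and 3 fell at 6 h, and 5 rose and 6 fell at 24 h. The percentages of all genes called at these times are those given above.

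In catabolism, Smox, which encodes spermine oxidase and turns spermine back into spermidine, had the highest log2 fold change of all these genes. It was at 27.1, 25.2, 23.7 and 27.2 CPM at 0 h and at 59.5, 81.9, 68.6 and 65.5 CPM at 2 h, far apart. The rise in Smox was log2 0.49 ± 0.084 at 1 h (adjusted p = 0.000137), 1.42 ± 0.083 at 2 h (3.04e-13) and 1.01 ± 0.083 at 6 h (1.80e-10). At 24 h Smox was still called (0.28 ± 0.085, adjusted p = 0.0148), but not without 0 h replicate 3 (0.0568) or 24 h replicate 2 (0.0644). Paox and Sat2, which encode the acetylpolyamine oxidase and a relative of Sat1, passed no test against 0 h. Azin2, which encodes another antizyme inhibitor, fell at 6 h from 22.2 ± 0.459 to 14.7 ± 1.08 CPM (log2 −0.60 ± 0.11, adjusted p = 5.63e-05), whereas Azin1 rose at that time.

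The supply of S-adenosylmethionine, the substrate of the Amd1 enzyme, split between its subunit genes. Mat2a encodes the catalytic subunit of methionine adenosyltransferase, and Mat2b its regulatory subunit. Mat2a was at 169, 199, 200.1 and 196 CPM at 0 h and at 364, 361, 331 and 367 CPM at 2 h. Mat2b was at 89.9, 93.9, 93.1 and 99.2 CPM at 0 h and at 47.2, 40.8, 43.3 and 55.3 CPM at 2 h. Neither gene overlapped between the times, and they moved in opposite directions.

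Mat2a rose by log2 0.67 ± 0.059 at 1 h (adjusted p = 3.07e-09), 0.90 ± 0.059 at 2 h (2.65e-12) and 0.44 ± 0.059 at 6 h (9.64e-07). Mat2b changed by log2 −0.55 ± 0.072 at 1 h, −1.01 ± 0.073 at 2 h (adjusted p = 1.67e-11), −0.53 ± 0.072 at 6 h and −0.29 ± 0.071 at 24 h (0.00323). At 24 h Mat2a was called below 0 h (−0.17 ± 0.059, adjusted p = 0.0310), with overlapping libraries. That call was lost without any 1 of 0 h replicates 2, 3 or 4 or any 24 h library (0.0575 to 0.112), and with no count filter (0.0819).

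Mtap encodes the phosphorylase that clears methylthioadenosine, the by-product of both synthases. It went from 110.0 ± 8.34 CPM at 0 h to 174 ± 4.76 at 6 h (log2 0.66 ± 0.057, adjusted p = 4.82e-10), the time at which Srm was highest. At 2 h Mtap rose by log2 0.18 (adjusted p = 0.0159, and 0.0729 without 0 h replicate 1). Among later steps of the same salvage route, Enoph1 was called at 6 h (0.31, adjusted p = 0.0278) and Apip at 24 h (0.47, 0.00236). Adi1 was called lower at 2 h (−0.31, 0.0131) and higher at 24 h (0.32, 0.0136). Mri1, of the same route, passed no test against 0 h. The Enoph1 call was lost without 0 h replicate 1 or 3 or 6 h replicate 2 or 3 (0.0562 to 0.132). That of Adi1 was lost at 2 h without 0 h replicate 1 (0.0598) or 2 h replicate 3 (0.0511) and at 24 h without 24 h replicate 4 (0.0615).

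Among genes that supply arginine and ornithine, the tested members were Slc7a1, Slc7a2 and Oat. Slc7a2, a cationic amino acid transporter gene, fell from 67.4 ± 3.02 CPM at 0 h to 40.1 ± 7.28 at 2 h, 38.9 ± 4.60 at 6 h and 39.1 ± 5.09 at 24 h. Its log2 fold changes were −0.75, −0.79 and −0.79 (adjusted p = 6.83e-06, 2.30e-06 and 5.05e-06), with every library below 0 h. Slc7a1, a related transporter gene, fell at 2 h (−0.56, adjusted p = 0.000180) and 24 h (−0.50, 0.000959). Oat, which encodes ornithine aminotransferase, fell at 24 h (−0.21, adjusted p = 0.00827).

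Spermidine is the substrate for hypusine, a modified lysine of the translation factor eIF5A that Dhps and Dohh help to make. Eif5a, which encodes eIF5A, went from 359 ± 12.9 CPM at 0 h to 447 ± 52.2 at 2 h and 525 ± 23.7 at 6 h, and was at 366 ± 15.3 at 24 h. The rises in Eif5a were log2 0.32 ± 0.065 (adjusted p = 0.000373) and 0.55 ± 0.065 (1.37e-07), with no overlap with 0 h. Dohh (0.40, adjusted p = 0.0231) and Dhps (0.21, 0.0494) were also called at 2 h. Without 2 h replicate 4 they did not pass (log2 0.18, 0.235 and log2 0.12, 0.221); Dohh also did not without 0 h replicate 3 (0.0630) or 4 (0.0509). The Dhps call was lost without any 1 of 17 of the 20 libraries. Eif5a2, the other eIF5A gene, passed no test against 0 h. Its log2 fold changes were 0.23, 0.14, −0.10 and −0.23 at 1, 2, 6 and 24 h, with every 6 h and 24 h library below 0 h.

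**Figure D4:**
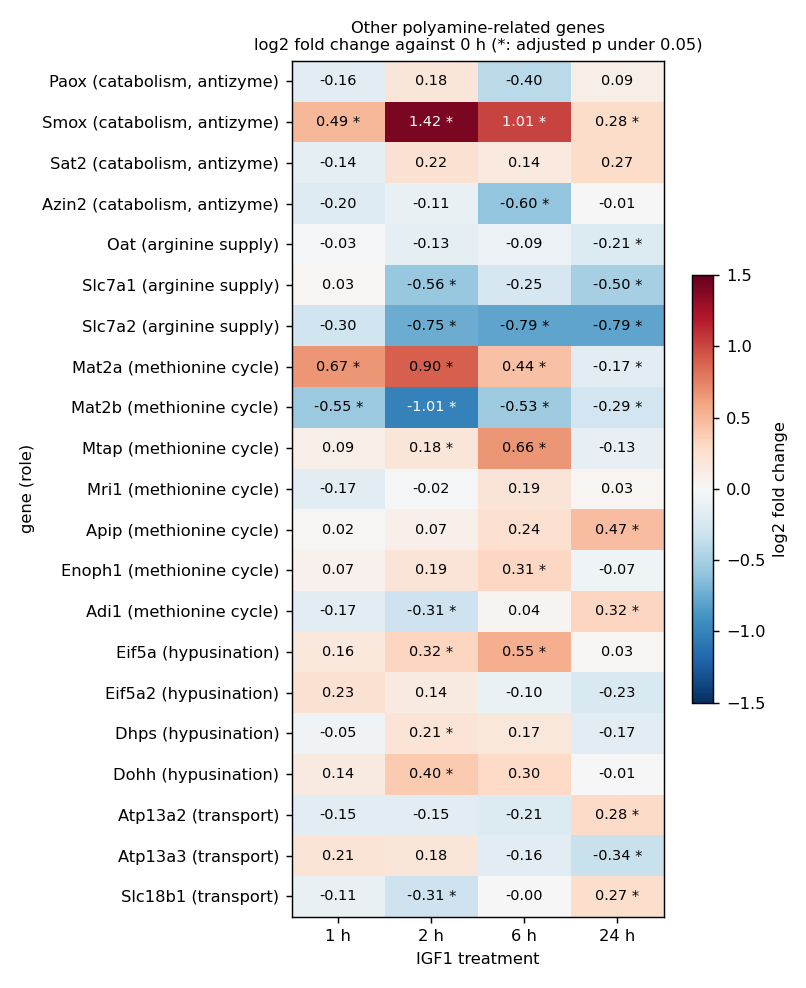
Log2 fold change against 0 h (colour and number) of the 21 other tested polyamine-related genes (y axis, with role) at 1, 2, 6 and 24 h of IGF1 (x axis), with a star for an adjusted p under 0.05. Smox and Mat2a are called higher at 1, 2 and 6 h, Mat2b is called lower at all 4 times, and Slc7a2 is called lower from 2 h on.

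The genes most like the 3 members of widest range were found by Pearson's r of log2 CPM over the 20 libraries, among 10300 tested genes with a mean of at least 5 CPM. The libraries share their time groups and scaling, so r is a description. For Srm they were Eif5a (r = 0.975), the tubulin gene Tubb5 (0.970) and Lrrc59 (0.964). For Azin1 they were Zc3h7a (0.978), the release factor gene Etf1 (0.964) and Ube2j1 (0.960). For Sms, at lower counts, they were Tbc1d1 (0.892), Nob1 (0.874) and Lpcat1 (0.873). With Spearman's rho in place of r, Tubb5 and Tbc1d1 stayed among the 3 most alike genes of Srm and Sms, and none did for Azin1.

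**Figure D5:**
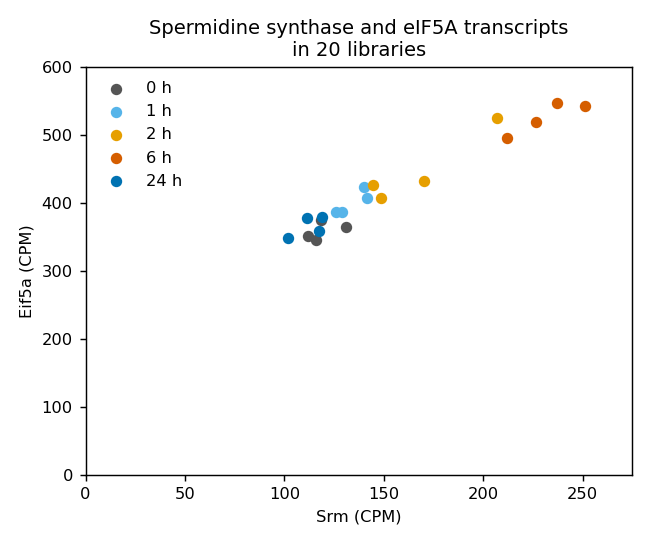
Level of Eif5a (y axis, CPM) against that of Srm (x axis, CPM) in the 20 libraries, coloured by hours of IGF1. The 6 h libraries and 2 h replicate 4 lie at the upper right, with Srm above 200 CPM, and the 0 h and 24 h libraries lie together at the lower left.

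Without 2 h replicates 1 and 2, which were left out together after the data had been seen, the 2 h rises of Odc1 (log2 0.32, adjusted p = 0.00157), Amd1 (0.40), Srm (0.66), Sms (0.80) and Azin1 (0.51) were still called. Oaz1 was then called too (0.22, 0.0289), while Sat1 (0.09, 0.561) was not. Smox (1.37), Mat2a (0.87) and Mat2b (−0.93) were also still called at 2 h. The step of Sms from 1 h to 2 h was lost (log2 0.47, adjusted p = 0.105), as were the 2 h calls of Adi1 (0.142), Dhps (0.0586) and Slc18b1 (0.0764). That fit kept 2 libraries at 2 h. Among them was replicate 4, the highest 2 h library for Odc1, Srm and Oaz1 (111, 207 and 123 CPM). Without 2 h replicate 4 alone, Odc1 did not pass (log2 0.12, adjusted p = 0.145). Srm was then at log2 0.37, still called, and Oaz1 at log2 0.048. How far the higher Odc1 and Srm values and the Oaz1 call rest on replicate 4 was not tested.

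The authors' deposited table of comparisons holds 12207 genes and all 8 members. Of its 56 log2 values for the members, 54 have the same sign as those above, and the largest difference is 0.0144. In that authors' deposited table and here, the same 25 of the 56 were called, and 0 by only 1 of them.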

How the data were processed

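Messenger RNA of 20 tenocyte libraries, 4 at each of 5 times, was sequenced. Labels gave each library's group and replicate number. Whole-number read counts per gene are as the authors deposited them. FastQC, STAR, edgeR and mm10 are named, without versions, in the submitters' processing notes. For the counting tool, the annotation and the use of strand, the entry is the same: not given in the sources used here. A further deposited table holds the authors' log2 fold changes and their p-values, raw and adjusted, which served only for a comparison with the values computed here.

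The counts were analysed as deposited in edgeR 4.0.16 (R 4.3.3): filterByExpr kept 14420 genes holding 99.9% of counts, libraries were scaled by TMM, and all 20 libraries entered 1 robust quasi-likelihood fit without covariates. The SE is the log2 fold change divided by the square root of F. P-values are two-sided and adjusted by Benjamini-Hochberg over all tested genes, with a threshold of 0.05. CPM uses TMM-scaled totals, and log2 CPM for ratios and correlations a prior count of 2. Totals of 13734425 to 22687173 counts gave Sms, the member with fewest reads, 48 to 152 counts per library.

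The 8 members, the related lists and the markers were chosen with earlier results of these data known. Named genes are all members, called genes of the related lists, and the 3 most alike genes of the 3 members of widest range. Positions and transcripts are from GENCODE M21 (mm10), and promoter windows from RefSeq. Alternatives were RLE scaling, DESeq2 1.42.0, no count filter, a minimum CPM of 1 in 4 or more libraries, a replicate block, only the libraries compared, plain totals or a prior count of 0.5 for levels and ratios, and omission of each library. The description of 0 h replicate 2 repeats that of replicate 1. Both were kept, since the chi-square between their counts (8.60 per degree of freedom) lay inside the range of all pairs of the same time, 2.88 to 52.5. Pairs at 0 h alone ranged from 3.95 to 9.90. The highest values, 38.8, 41.5 and 52.5, all came from pairs with 2 h replicate 4, which was kept. Without it 2156 genes were called at 1 h (1533 in all 20 libraries) and 4670 at 24 h (3746). The fit was also tested on simulated counts, where it recovered fewer of the changed genes than the mark first set for it, and that mark was lowered afterwards.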

Additional observations from a re-analysis of the deposited data

Results flagged for a closer look

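In 3 of the 40 groups of 4 libraries formed by the 8 members and 5 times, 1 library lay apart from the other 3 by Dixon's criterion, which chance meets in about 1 in 20 groups. Amd1 at 2 h was at 19.9 CPM in replicate 3 and at 24.5 to 25.1 CPM in the other libraries, still above every 0 h library. Amd1 at 24 h was at 16.5 CPM in replicate 2, with the other 3 at 17.0 CPM. Oaz1 at 6 h was at 91.2 CPM in replicate 4 and at 101 to 102 CPM in the others.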

How the results depend on the processing

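Of 1215 log2 fold changes of members under the alternatives, 72 changed call or sign, and of 891 values of related genes 63 lost the call and 0 reversed. RLE scaling, DESeq2 and the CPM filter changed no call of a member in a single comparison; with RLE, Sat1 missed the test over all times (0.0538). In edgeR, members called at 24 h numbered 0 with no count filter, where 2 had an unadjusted p under 0.05. They numbered 2 with only the 8 libraries compared, and 0 to 1 without single libraries. From 1 h to 2 h they numbered 1 with no filter and 0 with only those 8, where 2 passed unadjusted. Without 2 h replicates 1 and 2 they numbered 1, and without single libraries 1 to 3. DESeq2 was run only on all 20 libraries with the count filter. There it called 1 member at 24 h and 2 from 1 h to 2 h. With only the 8 libraries compared, 776 genes were called from 1 h to 2 h (2357 in all 20) and 2569 from 2 h to 6 h (3944). At 2 h against 0 h 3646 were called in that setting (5443 in all 20). More were called there at 1 h (2068 against 1533), 6 h (6947 against 5797) and 24 h (4938 against 3746). From 6 h to 24 h it was 6667 against 5166. The cause of these differences was not tested. Uncalled values near 0 changed sign without single libraries. At 1 h Sat1 ranged from −0.085 to 0.0093, Oaz1 from −0.0054 to 0.089 and Oaz2 from −0.063 to 0.0022. At 2 h Oaz2 ranged from −0.048 to 0.014 (0.014 without replicates 1 and 2). At 24 h Odc1 ranged from −0.0016 to 0.039, Amd1 from −0.0899 to 0.054, Sms from −0.23 to 0.022 and Oaz1 from −0.068 to 0.0041. Sms had the fewest counts per library of the members, and the precision that depth gives it was not tested. The cause of the lost calls was not tested.

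With the replicate number as a block, 2, 4, 6 and 1 members were called at 1, 2, 6 and 24 h. Odc1 at 2 h was lost (0.0525) and Sat1 from 2 h to 6 h was gained (0.0392). No other call of a member changed. Same-numbered libraries of different times had correlated deviations in 1 of 40 pairs (r over 0.1, range −0.17 to 0.126), and 3 of 20 libraries correlated best with their own number, so the numbers were not taken as pairs.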

Other observations

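Transporters of polyamines were measured through 3 related genes. Atp13a3, which encodes a polyamine-importing P5B ATPase, fell at 24 h (log2 −0.34, adjusted p = 0.00179 in edgeR), while its lysosomal relative Atp13a2 was called higher (0.28, 0.0405). The Atp13a2 call was lost without any 1 of 0 h replicates 2, 3 or 4 or 24 h replicates 2, 3 or 4 (0.0533 to 0.163). Slc18b1, which encodes a vesicular polyamine transporter, was called lower at 2 h (−0.31, adjusted p = 0.0141) and higher at 24 h (0.27, 0.0429). Slc18b1 was not called at 2 h without 0 h replicate 4 (0.0661), nor at 24 h without 0 h replicates 1 or 2 or 24 h replicates 1, 3 or 4 (0.0512 to 0.173).

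Among the 8 members, Pearson's r of log2 CPM over the 20 libraries was highest for Odc1 with Srm (0.911) and for Amd1 with Azin1 (0.911). Odc1 with Amd1 had r = 0.61, and Odc1 with Oaz2 had the lowest value (−0.46). The libraries share time groups and scaling, and these values are a description.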
